A study of Mus musculus with 2 samples.

Results

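Transporters of amino acids and of neurotransmitters derived from them were examined in cultured astrocytes of the dentate gyrus (DG), the part of the hippocampus in which new neurons are born in adult mice. The genes were chosen by symbol from the deposited tables and belong to the solute carrier families Slc1 (Slc1a1, Slc1a4, Slc1a5 and Slc1a7 where listed), Slc3, Slc6, Slc7 without Slc7a11, Slc36, Slc38 and Slc43. Of 16302 gene symbols in the joined tables, 47 are described. Slc7a6os, an antisense neighbour of Slc7a6 that encodes no carrier, shares the symbol pattern and was set aside at 11.1 (WT) against 10.6 FPKM (KO). This left 46 transporter genes. FPKM means fragments per kilobase of transcript, scaled to the mapped fragments of the library, a level per length that allows genes to be compared within a library.

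The WT group was wild-type mice and the KO group was mice with a knockout of Beta-arr1 (β-arr1, gene symbol Arrb1), a scaffold of receptor signaling, both of a strain given as C57BL/6 in the labels and as C57BL/6J in the methods of the study. The knockout was not limited to astrocytes. Astrocytes came from adult DG and were grown without other treatment on a coated surface in serum-containing medium with added glutamine, then shaken, a step meant to remove dividing cells, progenitors of oligodendrocytes and neurons. A single library per genotype was sequenced from pooled cDNA, so that no difference described here has a replicate error or a test, and mice, cultures and libraries cannot be told apart from the genotype.

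Amino acid carriers fall into functional classes. Some bring an amino acid into the cell together with sodium and can build up a gradient, others exchange one amino acid for another, and a further class works in the membrane of lysosomes. In brain, carriers of the plasma membrane end the action of glutamate, GABA and glycine at synapses, and astrocytes pass glutamine to neurons, which turn it back into glutamate. Some exchangers consist of a heavy chain, which brings the complex to the cell surface, and 1 of several light chains, which carries the amino acid.

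Upstream sequence is shown for the transporters that lay past the limits of the comparison given further on and for which the RefSeq promoter table held an entry, so that the genes which moved can be read beside their promoters. There were 4 of them. Each line gives the 250 bases before an annotated start in GRCm38.p6, 5′ to 3′ on the strand of the gene, and capitals mark the GC box GGGCGG or its reverse complement. The windows are chr19:8713898-8714147 on the minus strand for Slc3a2, chr19:28834885-28835134 on the plus strand for Slc1a1, chr3:107518019-107518268 on the minus strand for Slc6a17 and chr8:95853492-95853741 on the minus strand for Slc38a7.
Slc3a2: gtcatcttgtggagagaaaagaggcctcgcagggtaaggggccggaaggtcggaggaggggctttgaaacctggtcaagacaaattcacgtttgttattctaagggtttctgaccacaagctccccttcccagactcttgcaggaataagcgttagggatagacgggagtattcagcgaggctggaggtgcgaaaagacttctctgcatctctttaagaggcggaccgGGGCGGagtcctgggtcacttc
Slc1a1: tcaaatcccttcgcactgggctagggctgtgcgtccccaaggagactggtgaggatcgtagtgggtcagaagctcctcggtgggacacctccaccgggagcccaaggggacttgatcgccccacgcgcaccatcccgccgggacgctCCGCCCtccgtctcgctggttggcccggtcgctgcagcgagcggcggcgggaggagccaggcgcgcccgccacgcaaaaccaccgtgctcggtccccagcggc
Slc6a17: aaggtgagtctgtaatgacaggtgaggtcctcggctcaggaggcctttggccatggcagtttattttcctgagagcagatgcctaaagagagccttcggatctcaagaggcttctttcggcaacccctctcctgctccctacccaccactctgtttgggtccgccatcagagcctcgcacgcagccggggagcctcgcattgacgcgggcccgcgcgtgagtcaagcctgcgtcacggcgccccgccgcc
Slc38a7: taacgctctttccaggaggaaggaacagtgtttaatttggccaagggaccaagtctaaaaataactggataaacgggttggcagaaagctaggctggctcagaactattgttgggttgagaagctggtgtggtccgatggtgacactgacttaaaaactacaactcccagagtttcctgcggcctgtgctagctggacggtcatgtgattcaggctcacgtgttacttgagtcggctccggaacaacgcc

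Each window matched the older assembly NCBIM37 (mm9), which the deposited loci use, exactly and at 1 place. The annotated start of Slc6a17 was the first base of the deposited row in both tables. For Slc38a7 the start was that of the KO row and lay 18 bases from that of the WT row, and for Slc1a1 it lay 31 bases from the start of both rows. The start of Slc3a2 lay 9472 bases inside the deposited row, so that its window precedes an internal start. A second annotated start of Slc6a17, 17278 bases inside the row, is not shown. GC content was 70.4% in the Slc1a1 window with 27 CG dinucleotides, 62.0% for Slc6a17 with 18, 53.6% for Slc3a2 with 11 and 49.6% for Slc38a7 with 9, beside medians of 52.4% and 6 over all windows in the table. A GC box was present once in the windows of Slc3a2 and Slc1a1 and was found in 32.7% of all 32851 windows of this length. Of the 31 transporters with a window, 23 held a GC box in at least 1 window. The share counts windows and the number of transporters counts genes, which can have several windows, so that they cannot be compared directly. The letters TGATGNAA, the core of an element bound by the stress factor ATF4 when amino acids are short, were searched on both strands. They were found in 3.45% of all windows and in none of these 4. Counted by gene in the same way, Slc7a7 alone of the 31 transporters held them. A match is a description of letters and does not show binding.

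Most FPKM came from few carriers. The 46 genes summed to 591.04 (WT) against 649.98 FPKM (KO), and Slc6a6, Slc3a2 and Slc38a10 made up 52.8% and 55.2% of these sums. Slc6a6, which carries taurine, was the highest in WT, at rank 328 of 15362 listed genes. In KO it was at rank 343 of 15388, behind Slc3a2 at rank 326.

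In all, 28 of the 46 transporters reached 1 FPKM in at least 1 library and were compared. The limits were those of the study, a ratio of β-arr1 KO vs. WT above 3/2 or below 2/3. The minimum of 1 FPKM and the counting of a gene without a row as changed were choices made here. The shares below are therefore not those the study reported. The ratio was above 3/2 in 6 transporters (21.4%), below 2/3 in 3 (10.7%) and between the limits in 19. Over all 12646 genes compared, 9.56% were above 3/2 and 8.28% below 2/3, or 17.8% past either limit, beside 32.1% of the transporters. Genes of low level were past the limits more often. Among genes with a mean under 5 FPKM, 35.7% of all genes and 6 of 9 transporters were past them. At a mean of 5 FPKM or more these were 10.5% of all genes and 3 of 19 transporters. Of the genes listed in both tables, 14.6% were past the limits, beside 8 of 27 transporters. The shares were not tested, as the members were chosen by family and the libraries were not replicated. The median log2 ratio was 0.025 over these 27 transporters and 0.019 over all genes listed in both tables, and 55.6% and 53.1% were higher in KO.

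**Figure D1:**
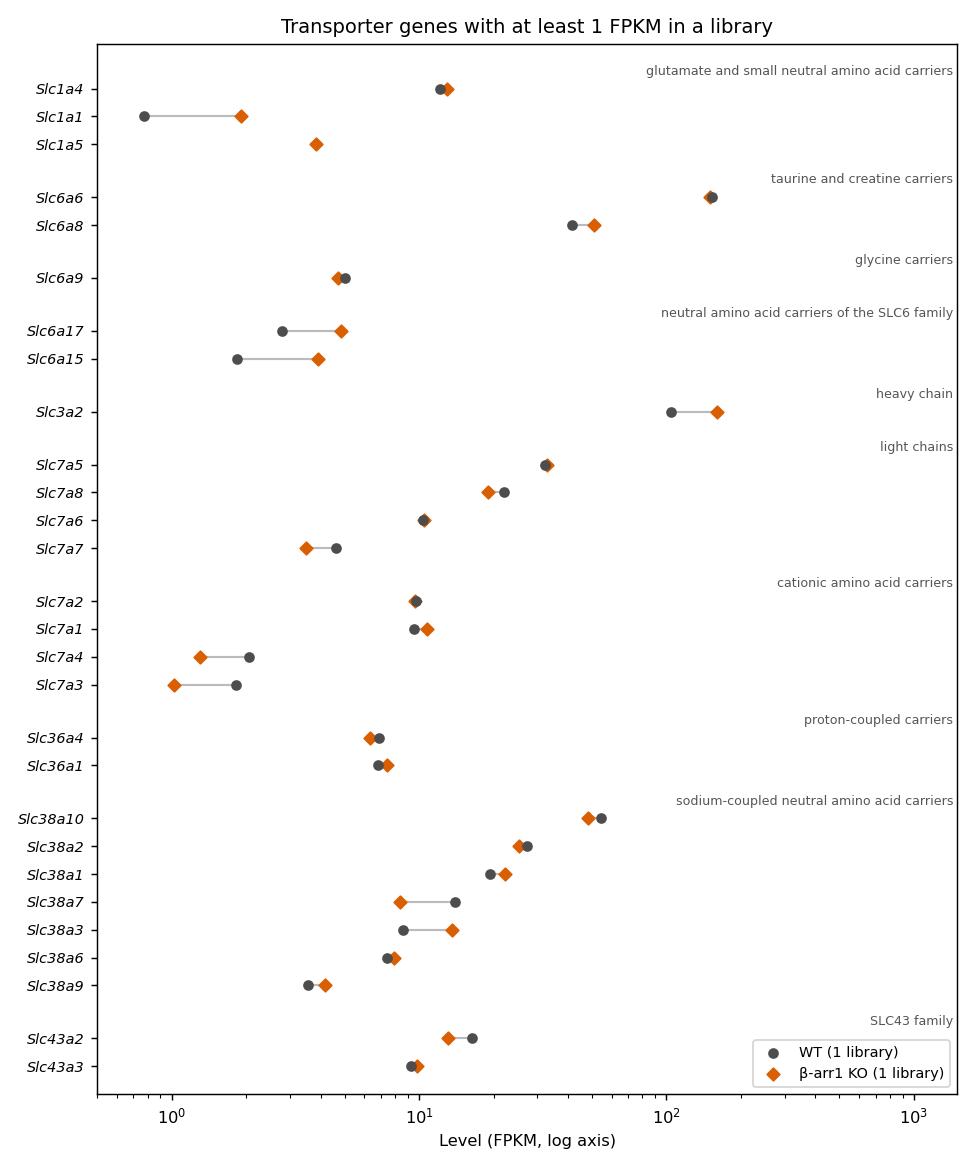
Level of each of the 28 compared transporters in FPKM (log axis) in the WT library (grey circles) and the β-arr1 KO library (orange diamonds), 1 library each, grouped by function. Slc6a6 lies near 150 FPKM in both libraries, Slc3a2 moves from 104 to 159.9 FPKM, and Slc1a5 has a point in KO only.

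**Figure D2:**
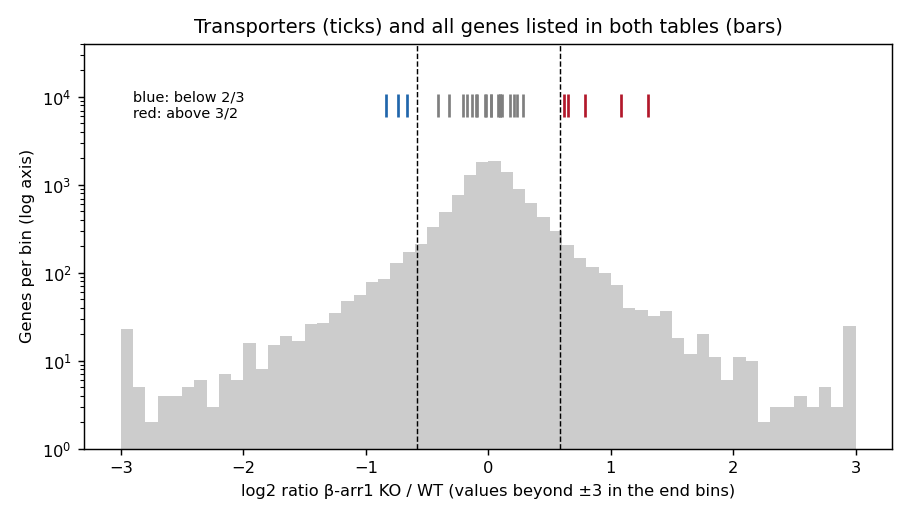
Bars give the number of genes per bin (log axis) of the log2 ratio KO / WT for all genes with a value in both tables, and ticks give the 27 transporters listed in both. Dashed lines mark 2/3 and 3/2. Ticks of 5 transporters lie above 3/2 (red), 3 below 2/3 (blue) and the rest between the limits.

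Arrb1, the targeted gene, stood at 7.62 FPKM for WT against 2.72 for KO, or 0.358-fold. Its row spans the whole gene, and the part removed in the mice is not given in the sources used here. The tables held no read counts. From the steps between the lowest values, 9.54 M mapped fragments were estimated in WT and 9.82 M in KO, and the fragments per gene estimated from them gave a 95% confidence interval of each ratio (exact Clopper-Pearson). These intervals hold counting error only, and they assume the longest annotated transcript in both libraries. They lay above 1 in 8 of the 27 transporters, below 1 in 6 and included 1 in 13.

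Among carriers of glutamate and small neutral amino acids, Slc1a1 and Slc1a5 were past the upper limit. Slc1a1 (NCBI gene 20510), which encodes the glutamate and cysteine carrier EAAC1, lies on chromosome 19 of mm9 from 28909656 to 28988450. It was at 0.770 (WT) against 1.90 FPKM (KO), both low. KO / WT was 2.47, and an estimated 27 and 68 fragments gave an interval of 1.56 to 4.01. Slc1a5 encodes ASCT2, an exchanger of glutamine and other neutral amino acids. Its row, on chromosome 7 from 17366695 to 17383623, stood in the KO table only, at 3.85 FPKM or about 100 fragments. No row of another gene covered this place in the WT table. A missing row does not show that no fragment was sequenced, and no ratio is given, but the gene counts among the 6 above 3/2. Among all compared genes, 248 were listed in KO only, and for 62 of them no WT row overlapped the locus. Slc1a4, which encodes the related exchanger ASCT1, was at 12.2 (WT) against 13.0 FPKM (KO), or 1.07-fold (interval 0.937 to 1.22).

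Slc1a2 (GLT-1), a main glutamate transporter of astrocytes, was not in the set and is given for comparison. It rose from 2.60 to 4.11 FPKM, or 1.58-fold (interval 1.36 to 1.84). Slc1a3 and Slc1a6 of the same family, also outside the set, had higher levels and lay within the limits. Slc1a3 was at 14.9 (WT) against 17.2 FPKM (KO), or 1.15-fold (interval 1.03 to 1.29). Slc1a6 went the other way, at 37.6 against 28.2 FPKM, or 0.7485-fold (interval 0.667 to 0.839).

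Of carriers of GABA, 3 are described and were below 1 FPKM. Slc6a11, which encodes GAT3, the GABA carrier known from astrocytes, was at 0.0269 (WT) against 0.0262 FPKM (KO), about 1 fragment in each library. Slc6a12, the betaine and GABA carrier, was at 0.482 against 0.383 FPKM. Slc6a13, which encodes GAT2, was listed in KO only, at 0.0515 FPKM. At this depth no difference between the libraries was detectable for these 3 genes.

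Both SLC6 carriers of neutral amino acids that reached 1 FPKM were higher in KO. Slc6a15 (NCBI gene 103098), on chromosome 10, encodes B0AT2, which carries branched-chain amino acids and proline into cells. It rose from 1.84 to 3.89 FPKM, or 2.12-fold (interval 1.55 to 2.92). Slc6a17 (NCBI gene 229706), on chromosome 3 from 107270466 to 107320936, encodes NTT4, a carrier of synaptic vesicles. It rose from 2.80 to 4.83 FPKM, or 1.72-fold (interval 1.42 to 2.10), from an estimated 164 and 292 fragments. Slc6a15 and Slc1a1 were the only transporters whose whole interval lay above 3/2.

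Slc6a15 and Slc6a17 are known from neurons, and markers of neurons and of the oligodendrocyte lineage were compared beside them, although the shaking step was meant to remove both neurons and oligodendrocyte progenitors. Among 10 neuronal markers, Rbfox3, Snap25, Syt1, Nefl, Slc17a7 and Gad2 were at 0.261 FPKM or less where listed. Syt1 and Slc17a7 were lower in KO and Nefl was listed in WT only. Rbfox3 and Snap25 were higher in KO and Gad2 was listed in KO only. The 4 markers that reached 1 FPKM lay within the limits and were all higher in KO. Stmn2 was at 36.6 (WT) against 43.4 FPKM (KO), with an interval of 1.06 to 1.32. Gap43 was at 14.9 against 18.9 FPKM, with an interval of 1.04 to 1.55. The intervals of Syn1 and Nefm included 1. The list summed to 57.2 (WT) against 68.6 FPKM (KO), most of it Stmn2. Among 10 markers of the oligodendrocyte lineage, 4 of 8 compared were above 3/2 and none was below 2/3. These were Pdgfra (3.12 and 6.03 FPKM), Olig1 (32.6 and 56.0 FPKM), Olig2 (6.19 and 13.1 FPKM) and Sox10 (0.907 and 1.82 FPKM). The list summed to 106.6 (WT) against 152.9 FPKM (KO), and Mog was not listed in WT and at 0.0662 FPKM in KO. The part of these cells in the values of both carriers was not tested. In such cultures, fewer cells of a type and less RNA per cell cannot be told apart.

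Carriers of taurine and creatine, which cells use as osmolyte and as energy buffer, lay within the limits. Slc6a6 was at 153.4 (WT) against 150.35 FPKM (KO), or 0.980-fold, and the interval of 0.952 to 1.01 was the narrowest of the set. The creatine carrier Slc6a8, on the X chromosome, was at 41.6 against 50.7 FPKM. Its ratio of 1.22 was the highest within the limits, with an interval of 1.14 to 1.31 that left out 1. Of the glycine carriers, Slc6a9 (GLYT1, the glial type) was at 5.003 against 4.69 FPKM, or 0.937-fold (interval 0.745 to 1.18). Slc6a5 (GLYT2, known from glycinergic neurons) was listed in WT only, at 0.0456 FPKM. The monoamine carriers Slc6a2 (noradrenaline), Slc6a3 (dopamine) and Slc6a4 (serotonin) were all below 0.1 FPKM where listed.

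In FPKM, the largest difference of the set was that of the heavy chain. Slc3a2 (NCBI gene 17254), which encodes 4F2hc or CD98, lies on chromosome 19 from 8781372 to 8797859. It rose from 104 (WT) to 159.9 FPKM (KO), or 1.54-fold (0.62 in log2). An estimated 2622 and 4150 fragments gave an interval of 1.46 to 1.61, which left out 1 and included 3/2. The row had the same bounds in both tables.

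None of the 4 compared light chains that join Slc3a2 was past the limits. Slc7a5 (LAT1), which exchanges large neutral amino acids, was at 32.4 (WT) against 32.8 FPKM (KO), or 1.01-fold (interval 0.929 to 1.10). Slc7a8 (LAT2), with similar substrates, was at 22.1 against 19.1 FPKM, or 0.864-fold (interval 0.780 to 0.956). Slc7a6 (y+LAT2), which exchanges cationic for neutral amino acids, was at 10.3 against 10.5 FPKM, or 1.02-fold. Slc7a7 (y+LAT1), of the same type, was at 4.62 against 3.48 FPKM, or 0.754-fold, and the interval of 0.539 to 1.05 held 1. Slc7a10 (Asc-1), a carrier of small neutral amino acids, was listed in WT only, at 0.874 FPKM or about 15 fragments. Together, the 5 light chains summed to 70.3 (WT) against 65.9 FPKM (KO), or 0.937-fold. There were 1.48 FPKM of Slc3a2 per FPKM of these light chains in WT and 2.43 in KO. Slc7a11, the cystine light chain outside the set, fell from 5.75 to 3.05 FPKM, or 0.530-fold, and with it the values were 1.37 and 2.32. The numbers describe mRNA, and no protein complex was measured.

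**Figure D3:**
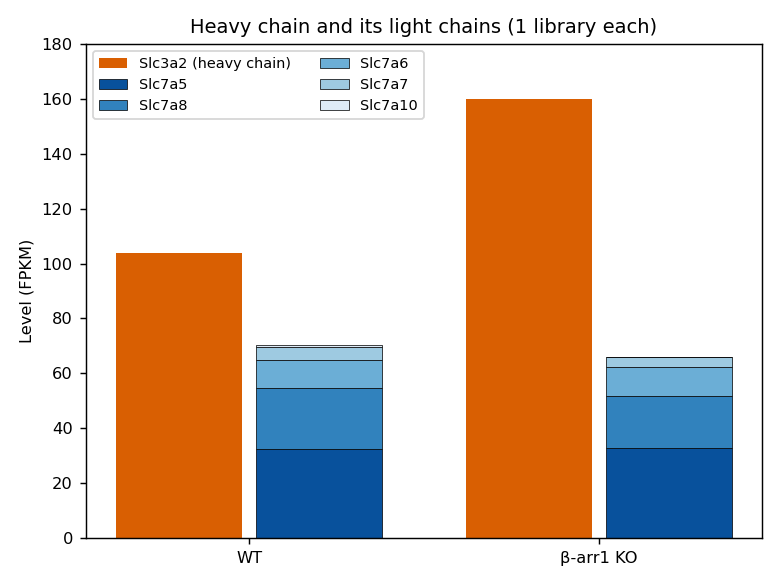
Level in FPKM of the heavy chain Slc3a2 (orange) and, stacked, of 5 of its light chains (blue shades) in the WT and β-arr1 KO libraries, 1 library each and no error bars. The orange bar rises from 104 to 159.9 FPKM, and the stack is 70.3 (WT) against 65.9 FPKM (KO).

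Cationic amino acid carriers, which bring in arginine and lysine, divided by level. The well expressed Slc7a1 (CAT1) was at 9.50 (WT) against 10.7 FPKM (KO), or 1.13-fold (interval 1.01 to 1.26). Slc7a2 (CAT2) was at 9.75 against 9.64 FPKM, or 0.989-fold (interval 0.891 to 1.10). The less abundant Slc7a3 (CAT3), on the X chromosome, fell from 1.81 to 1.02 FPKM, or 0.562-fold on about 45 and 26 fragments (interval 0.333 to 0.930). Slc7a4, a relative whose substrate is not settled, fell from 2.05 to 1.30 FPKM, or 0.632-fold (interval 0.414 to 0.958). The Slc7a4 row ended at 17583250 of chromosome 16 in WT and at 17576764 in KO. With a pseudocount of 1 FPKM both were within the limits, at 0.717 for Slc7a3 and 0.753 for Slc7a4.

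Of 11 Slc38 genes, 7 were compared. Slc38a3 (SNAT3, NCBI gene 76257), on chromosome 9 from 107553486 to 107571299, carries glutamine in both directions and is known from perisynaptic astrocytes. It rose from 8.62 (WT) to 13.5 FPKM (KO), or 1.57-fold (interval 1.34 to 1.85). In the KO table its row lay inside that of Gnai2, which reached to 107581923 at 381.2 FPKM. In the WT table Gnai2 ended at 107537673, at 343.0 FPKM, and the rows did not overlap. How reads of this place were assigned to either gene was not tested.

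Slc38a7 (SNAT7, NCBI gene 234595), on chromosome 8 from 98359823, exports glutamine from lysosomes. It fell from 13.9 (WT) to 8.35 FPKM (KO), or 0.600-fold (-0.74 in log2). With about 420 and 259 fragments, the interval ran from 0.512 to 0.703, leaving out 1 and holding 2/3. Slc38a9, the lysosomal arginine sensor of the growth kinase mTORC1, was at 3.56 against 4.18 FPKM, or 1.18-fold (interval 0.891 to 1.55).

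The remaining Slc38 genes lay within the limits. Slc38a10 had the highest level of them, at 54.5 (WT) against 48.3 FPKM (KO), or 0.886-fold (interval 0.835 to 0.941). Slc38a2 (SNAT2), which cells make more of when amino acids are short, was at 27.3 against 25.4 FPKM, or 0.932-fold. Slc38a1 (SNAT1), a glutamine importer, was at 19.3 against 22.3 FPKM, or 1.15-fold (interval 1.07 to 1.24). Slc38a6 was at 7.40 against 7.93 FPKM, or 1.07-fold.

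Of the proton-coupled Slc36 carriers and the Slc43 family, no compared member was past the limits. Slc36a1 (PAT1), which exports amino acids from lysosomes, was at 6.84 against 7.39 FPKM, or 1.08-fold. Slc36a4 was at 6.91 against 6.31 FPKM, or 0.913-fold. Slc43a2 (LAT4), which lets branched-chain amino acids pass down their gradient, was at 16.4 against 13.1 FPKM, or 0.799-fold (interval 0.730 to 0.875). Slc43a3, which carries purine bases and not amino acids, was at 9.32 against 9.82 FPKM, or 1.05-fold.

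**Figure D4:**
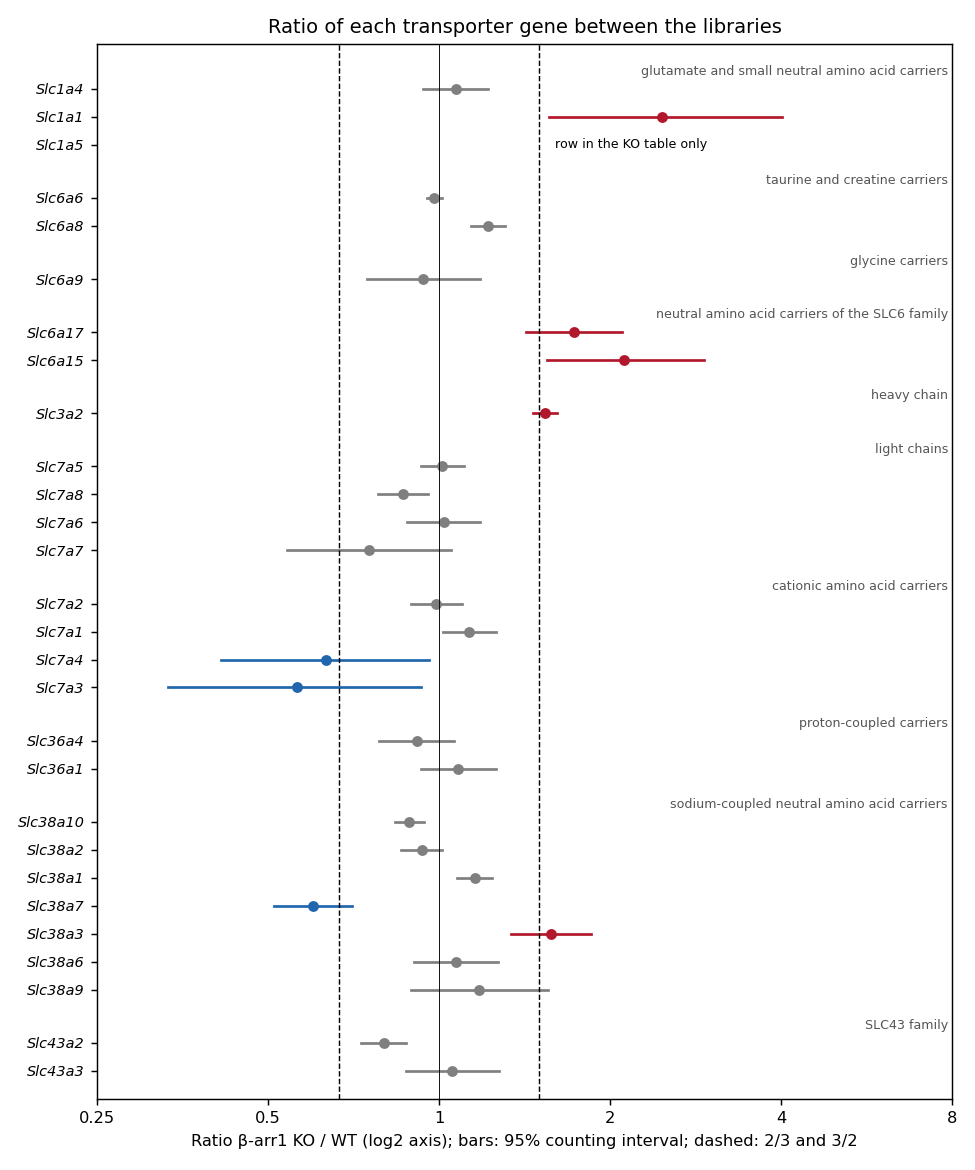
Ratio KO / WT (log2 axis) of each compared transporter with its 95% counting interval (bars), which holds no error between mice or cultures. Dashed lines mark 2/3 and 3/2, red points lie above 3/2 and blue points below 2/3. The intervals of Slc1a1 and Slc6a15 lie wholly above 3/2, and none lies wholly below 2/3.

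The other 18 transporters stayed below 1 FPKM in both libraries, at no more than 0.874 (WT) against 0.383 FPKM (KO), and rested on 15 fragments or fewer. Slc36a2, Slc38a4, Slc38a11, Slc7a10 and Slc7a14 would be below 2/3, and Slc43a1, Slc6a19 and Slc7a13 above 3/2, if the minimum were 0.1 FPKM. The highest ratio among them was that of Slc6a19, an intestinal and renal carrier, at 4.86 from an estimated 2 and 9 fragments. Slc6a7, Slc38a5 and Slc38a8 were listed in WT only, at 0.0855 FPKM or less.

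Genes that use or sense the carried amino acids were compared from 7 lists, and no difference between these and the transporters was tested. Of 15 genes of the ATF4 programme, which cells switch on when amino acids are short, 14 lay within the limits. Of the 15, 13 were lower in KO and the median log2 ratio was -0.23. Over all genes listed in both tables, 53.1% were higher in KO. Among the lower genes, the intervals of Atf3, Trib3, Chac1, Asns, Cebpb, Cebpg and Eif4ebp1 included 1. Nupr1, a stress-induced chromatin protein, fell from 62.0 to 36.1 FPKM, or 0.582-fold. Atf4 itself was at 81.2 against 93.4 FPKM, or 1.15-fold. All 14 listed genes of amino acid sensing by mTORC1 lay within the limits, with a median log2 ratio of -0.03.

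In serine and glycine metabolism, 8 of 10 compared genes lay within the limits (median log2 ratio 0.18). Amt, a subunit of the glycine cleavage system, rose from 7.08 to 19.9 FPKM, or 2.81-fold, but its row began at 108199251 of chromosome 9 in WT and at 108192771 in KO. Shmt1, which converts serine to glycine, was listed in WT only, at 1.33 FPKM. In the metabolism of glutamine, glutamate, GABA and proline, 11 of 12 genes lay within the limits (median log2 ratio near 0, at -0.001). Glul, which makes glutamine in astrocytes, was at 83.3 (WT) against 61.8 FPKM (KO), or 0.742-fold (interval 0.694 to 0.792). Glud1 was at 67.2 against 77.6 FPKM and Oat at 110.2 against 96.2 FPKM. Prodh, which breaks down proline, fell from 1.04 to 0.627 FPKM, on an estimated 22 and 14 fragments, with an interval of 0.285 to 1.23 that included 1.

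Of 8 compared genes of arginine, creatine and taurine metabolism, all lay within the limits (median log2 ratio -0.14). Ckb, the brain creatine kinase, was at 906 (WT) against 1266 FPKM (KO), or 1.397-fold, and Odc1, which starts polyamine synthesis, was at 54.4 against 57.9 FPKM. In branched-chain amino acid breakdown, 8 of 9 genes lay within the limits (median log2 ratio 0.05), and the cytosolic aminotransferase Bcat1 fell from 2.47 to 1.21 FPKM, or 0.491-fold. Of 16 other amino acid and transmitter transporters, 6 were compared, with Slc1a2 above 3/2, Slc7a11 below 2/3 and a median log2 ratio of -0.16.

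**Figure D5:**
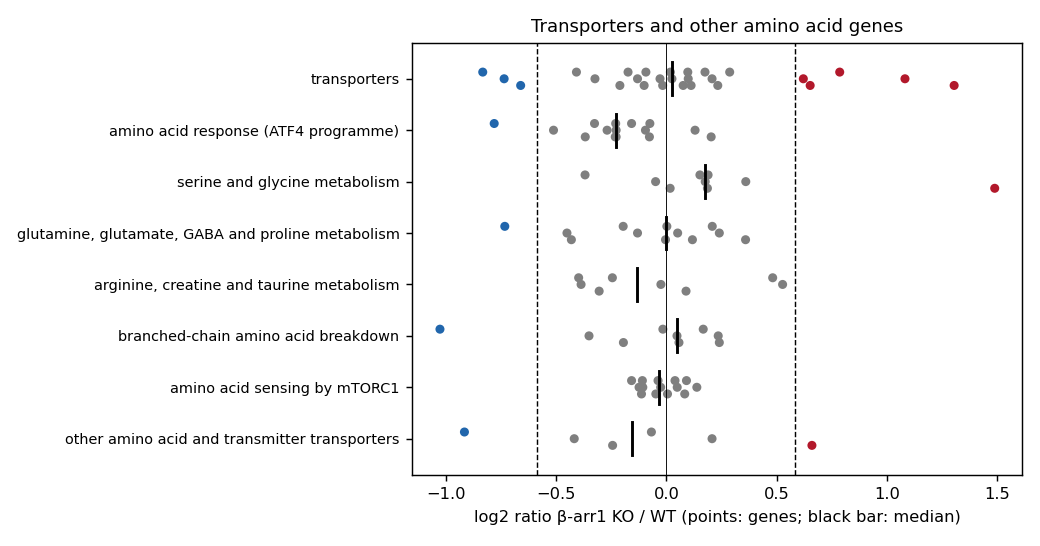
Log2 ratio KO / WT of the transporters and of 7 lists of related genes, with 1 point per gene compared and listed in both tables, a black bar at the median and dashed lines at 2/3 and 3/2. The transporters have 5 of 27 points above and 3 below the limits. The other lists are smaller, at 6 to 15 points, and none has more than 1 on either side. The list of other transporters has 1 above and 1 below among 6 points. Of all genes listed in both tables, 14.6% were past the limits.

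Markers of further cell types moved between the libraries as well. Of 9 compared astrocyte markers, 4 were above 3/2 and none below 2/3. These were Aqp4 (7.05 and 13.5 FPKM), S100b, Aldoc and Slc1a2, the glutamate transporter given above. Gfap was at 188.5 against 191.8 FPKM. Only Gja1 was lower in KO, at 34.0 against 29.4 FPKM (interval 0.785 to 0.947). The list summed to 313.0 (WT) against 358.1 FPKM (KO). Of 8 compared markers of meningeal and perivascular fibroblasts, 7 were below 2/3, with sums of 691.4 and 377.8 FPKM. Of 6 compared ependyma and choroid plexus markers, 2 were above 3/2 and 3 below 2/3, with sums of 101.8 and 45.8 FPKM. Ttr, Folr1 and Otx2 fell, Ttr being at 23.8 against 0.290 FPKM, while Foxj1, a factor of ciliated cells, rose from 14.7 to 24.4 FPKM and Rarres2 was listed in KO only, at 1.15 FPKM. Microglial markers summed to 992.8 and 770.6 FPKM with 1 of 10 below 2/3. Of 9 compared endothelial markers, 2 were above 3/2 and 2 below 2/3, with sums of 89.1 and 87.8 FPKM. Pecam1 rose 1.72-fold and Flt1 1.71-fold, Cdh5 fell from 31.8 to 16.1 FPKM, and Slco1a4 was listed in WT only, at 1.18 FPKM. Pericyte and smooth muscle markers summed to 5874 and 5583 FPKM with 1 of 8 below 2/3. The part of such cells in the transporter values was not tested.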

How the data were processed

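Total RNA of cultured DG astrocytes was sequenced in 1 library per genotype. The authors aligned reads to mm9 with TopHat (version 1.4.0 per the processing notes), ran Cufflinks and deposited 1 FPKM value per gene, which accounts for transcript length and sequencing depth. Neither the Cufflinks version nor strand is given in the sources used here, so that reads of overlapping genes on opposite strands may not be separated. The tables list values above 0 only. They were joined by symbol, keeping the highest row of a repeated symbol, and a gene without a row counted as 0 and as changed. Genes that reached 1 FPKM in either library were compared by the ratio KO / WT without a pseudocount. A start of a locus was counted from 1 by adding 1, after comparison with GENCODE for NCBIM37. Of matched genes, 99.9% lay on the same chromosome. Their start equalled the GENCODE start in 38.4% (WT) and 38.7% (KO) after adding 1, beside 3.04% and 3.1% as written. Mapped fragments were estimated from genes under 0.15 FPKM with 1 annotated transcript over 1000 bases, of which 68.5% in WT and 68.3% in KO lay within 5% of a step of 1 to 3 fragments. The computation was tested on simulated data. Every transporter with at least 1 FPKM was named, as were those past the limits when the minimum was 0.1 FPKM. Of the other lists, genes past the limits or of at least 50 FPKM were to be named, and not all of the latter are given. The members and lists were chosen with earlier results of these data known. Promoter windows were those of RefSeq for GRCm38.p6, found for 31 of the 46 transporters. An item matched by the symbol rule is not reported here and is left out of the transporter counts. Computation used scipy 1.17.1, pandas 2.3.3 and numpy 2.4.6 under Python 3.11.15, and plots used matplotlib 3.10.9.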

Additional observations from a re-analysis of the deposited data

How the results depend on the processing

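Against 6 transporters above 3/2 and 3 below 2/3, a minimum of 0.1 FPKM gave 9 and 8, a minimum of 5 FPKM gave 2 and 1, and no minimum gave 11 and 13. Limits of 2 and 1/2 gave 3 and 0. A pseudocount of 1 FPKM gave 6 and 1, and restriction to rows with identical locus bounds gave 4 and 1. Rescaling KO by total FPKM, by median ratio or by upper quartile, rows of a symbol summed, a pseudocount of 0.1 FPKM, a minimum of 0.5 FPKM, a minimum of 1 FPKM in both libraries and, both chosen after seeing the data, genes listed in both tables and the removal of rows that overlap another gene gave 4 to 6 above and 3 or 4 below. The median log2 ratio, 0.025, lay between -0.023, with no minimum, and 0.104, with the same bounds, and was -0.001 after rescaling by upper quartile. Of 8 transporters past the limits and listed in both tables, 6 stayed on their side throughout. The settings were 3 rescalings, summing and pseudocounts of 0.1 and 1. Slc7a3 (0.717) and Slc7a4 (0.753) came within the limits with a pseudocount of 1 FPKM. The rescalings multiplied KO by 1.003 (total), 0.9878 (median ratio) and 0.9823 (upper quartile), and summing left these ratios as they were. Rescaling could therefore move only a ratio close to a limit. Slc3a2 stayed between 1.51 and 1.54 and Slc38a3 between 1.51 and 1.58, both close to 3/2. All 19 transporters within the limits, at ratios of 0.754 to 1.22, remained there, an outcome that these settings could hardly change. A pseudocount only draws a ratio toward 1. Besides Slc38a3, the rows of Slc38a6 and Slc6a9 (WT) and of Slc7a7 (both tables) overlapped another gene. Depth limits genes under 1 FPKM, and no setting replaces the missing replicates. No paired analysis was possible because each genotype had 1 library.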
